A study of Mus musculus with 6 samples.

Results

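The mitochondrial ribosomal protein genes were examined in HK-2 cells with and without overexpression of USAG-1, the secreted BMP and Wnt antagonist encoded by SOSTDC1. They were chosen by symbol alone, as every row of the deposited count table named MRPL or MRPS followed by a number and at most one letter from A to C. This gave 78 of the 39234 genes in the table, with 49 MRPL and 29 MRPS symbols, and all 78 passed the filter on low counts and were tested.

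Both groups were bulk RNA-seq libraries of HK-2, an immortalized human proximal tubule epithelial line, with 3 control and 3 USAG-1-overexpressing samples. The labels give genotype WT for all 6 samples, name no treatment or time, and mark the USAG-1 group only as overexpression, which the study's methods describe for this line as transient plasmid transfection. The labels do not say what the control cells received, and the methods state that the line was not authenticated by short tandem repeats. The organism is labelled as mouse, although HK-2 and the Ensembl identifiers are human. The labels do not say whether the samples came from separate cultures, and the methods speak of biological replicates for most experiments without saying which, so the p-values measure the spread between these samples, which may be technical.

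The mitochondrial ribosome translates the few messages of mitochondrial DNA, all of which encode core subunits of the respiratory chain and the ATP synthase. Its protein components are encoded in the nucleus, made on cytosolic ribosomes and imported, whereas its ribosomal RNAs are transcribed from mitochondrial DNA. The small subunit carries the message and the decoding centre, and the large subunit holds the peptidyl transferase centre and the exit tunnel. Some of the proteins descend from bacterial ribosomal proteins, and others are found only in mitochondria. Proximal tubule cells depend strongly on oxidative phosphorylation.

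The libraries held 41236194 to 48699471 counts in control cells and 42782931 to 45448720 in USAG-1-overexpressing cells. SOSTDC1 was at 1.89, 1.62 and 1.41 CPM (counts scaled to library size, here with TMM factors) in the control libraries and at 110.5, 89.5 and 102.8 CPM in the overexpressing ones. The epithelial markers KRT8, KRT18, KRT19 and PAX8 were expressed in every library, while PAX2 was under 1 CPM in all 6. Of the markers of proximal tubule, GGT1 was at 85.1 to 164.4 CPM and ANPEP at 1.62 to 3.61 CPM, SLC34A1 was under 1 CPM, and LRP2, CUBN and AQP1 were at or near 0, LRP2 in all 6. PAX8 and GGT1 passed as higher in USAG-1-overexpressing cells (log2 fold changes 0.26 and 0.55, edgeR adjusted p = 0.0114 and 0.0208). The fibroblast marker LUM was at 33.0 to 51.0 CPM and also passed as higher (0.57, edgeR adjusted p = 0.00114). PECAM1 did not pass, and PDGFRA, VWF and CDH5 were at or near 0. All 13 T and cytotoxic cell markers were lower in USAG-1-overexpressing cells at an adjusted p under 0.05, with summed levels of 90.3 to 109 CPM in control and 9.13 to 12.8 CPM in overexpressing libraries. CD2 and GZMA were at 0 in overexpressing library 2 and CD3D in library 1. Among 5 myeloid markers 2 were lower (sums of 36.1 to 52.4 against 22.0 to 27.9 CPM), and none of 4 B cell markers passed the test (2.01 to 3.67 against 1.22 to 3.22 CPM). The part of these transcripts in the results below was not tested. In bulk RNA, fewer cells of a type and less RNA per cell cannot be told apart.

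Control library 3 stood apart. Its counts differed from those of controls 1 and 2 by a chi-square per degree of freedom of 47.2 and 47.7, against 6.87 between controls 1 and 2 and 8.13 to 8.90 between the overexpressing libraries. The mitochondrial ribosomal protein genes were among those affected: 62 of the 78 were higher in control 3 than the mean of the other control libraries, by a median of 0.27 on the log2 scale. Over all 18188 genes tested, this median was -0.0093. Control 3 was the highest of the 6 libraries for 55 of the 78 genes (70.5%), compared with 25.5% of all genes tested, and the lowest for 3. The widest gap was at MRPS24, whose levels were 66.8, 64.3 and 102.8 CPM in control and 68.7, 71.2 and 68.2 CPM in overexpressing libraries. Accordingly, the counts of genes that passed are also given without control 3. This library was singled out from these same data, and leaving it out narrows the spread between controls. Smaller p-values without control 3 are therefore not further evidence for a gene.

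**Figure D1:**
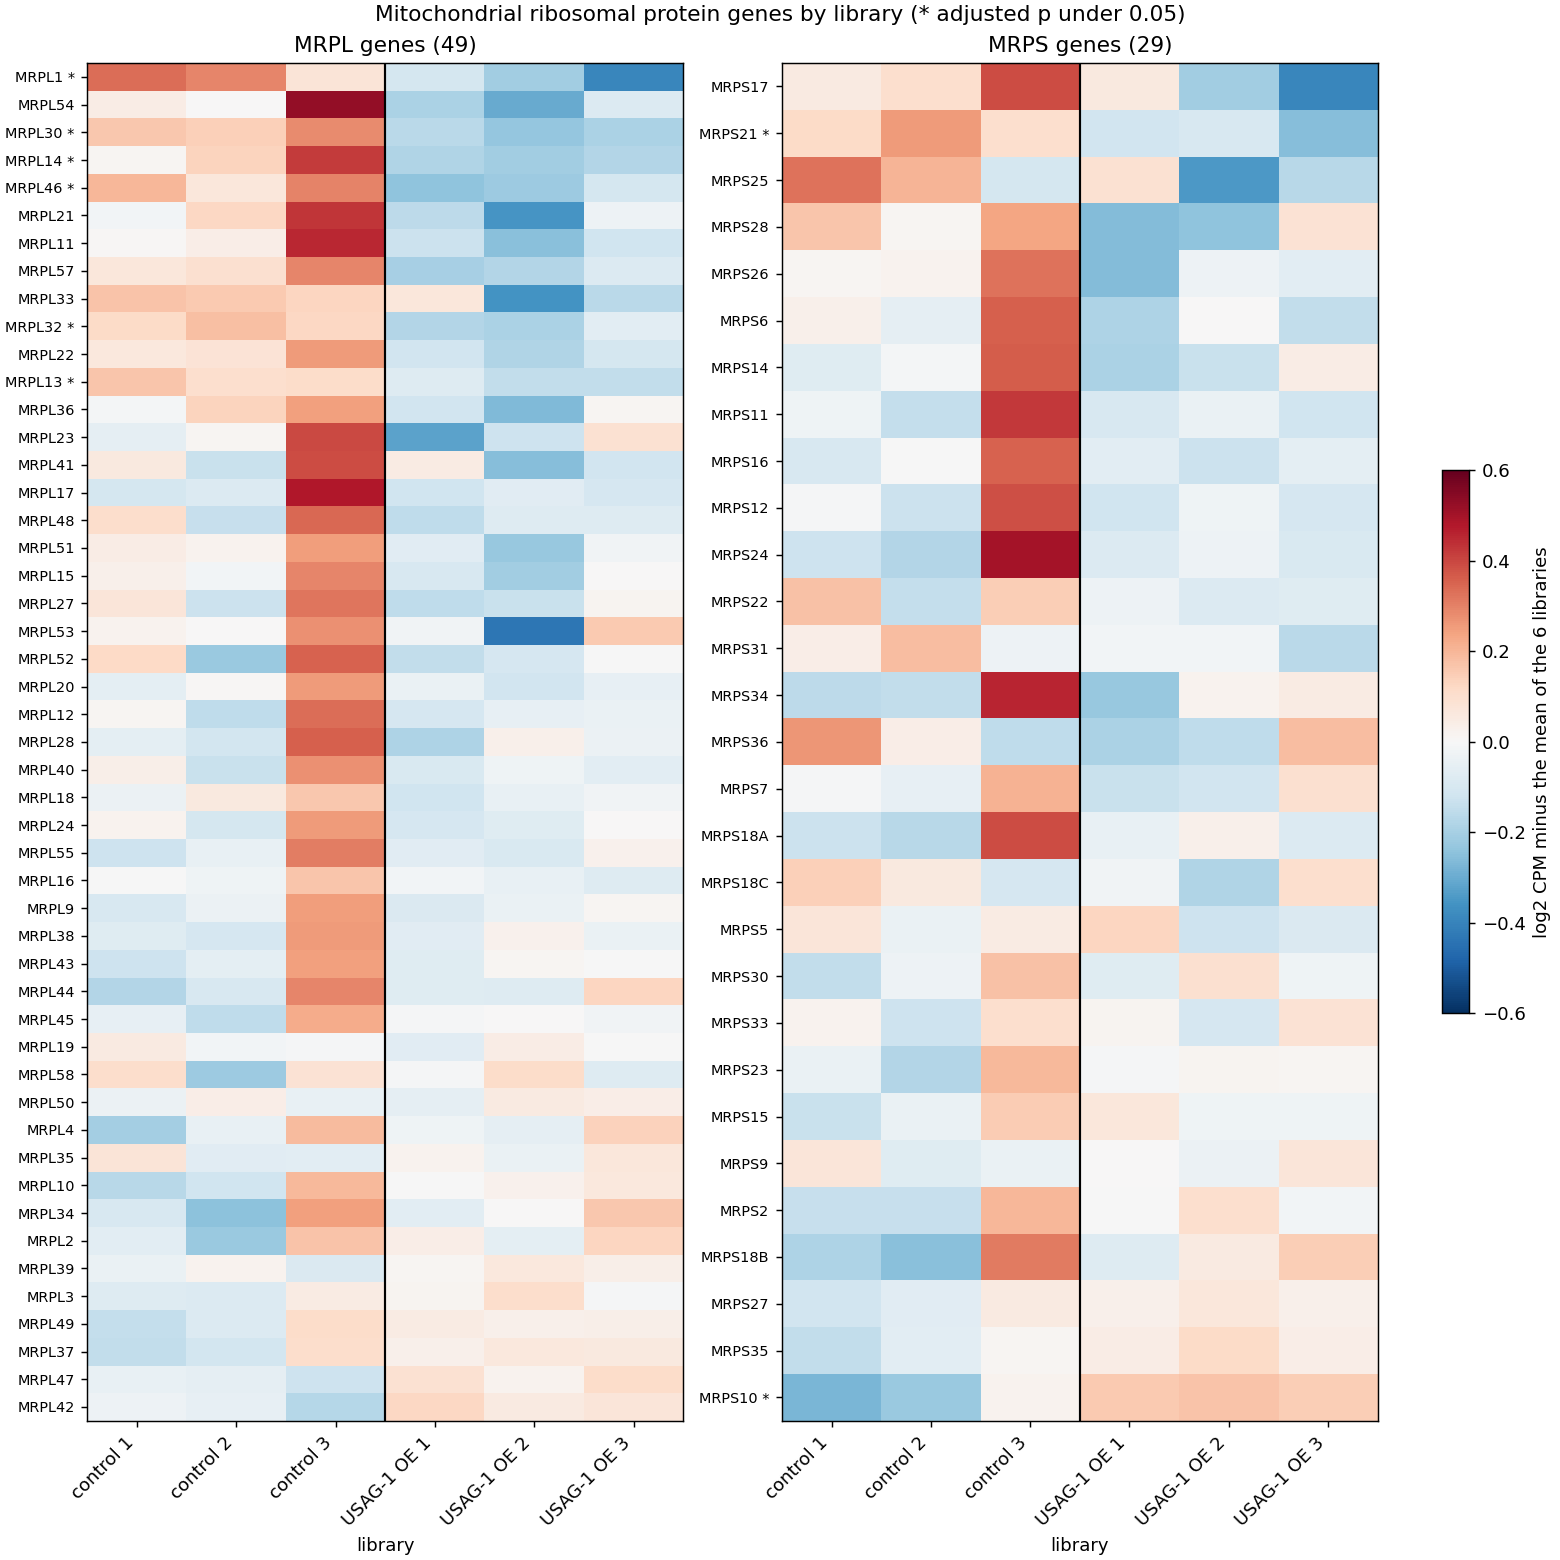
Level of each of the 49 MRPL and 29 MRPS genes (rows, ordered by fold change) in the 6 libraries (columns), as log2 CPM minus that gene's mean over the 6 libraries, with red for higher and blue for lower. Control 3 is the reddest column, being highest for 55 of the 78 genes, and asterisks mark the 8 genes with an adjusted p under 0.05.

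Most of the 78 genes changed little. USAG-1 overexpression was compared with control by edgeR's quasi-likelihood test, with p-values adjusted over all 18188 genes and a threshold of 0.05 at any fold change. Of the 78 genes, 8 (10.3%) passed, 7 lower and 1 higher in USAG-1-overexpressing cells. Among all genes tested 15.9% passed, 6.91% lower and 8.95% higher, so the share of the 78 genes that passed in either direction lay below the background. By direction, the share of higher genes (1 of 78) lay below its background, and that of lower genes (7 of 78) did not. The genes that fell were MRPL1, MRPL13, MRPL14, MRPL30, MRPL32, MRPL46 and MRPS21, and the one that rose was MRPS10. The log2 fold changes ran from -0.47 (MRPL1) to 0.31 (MRPS10), with a median of -0.13 against -0.019 over all genes tested, and 57 of the 78 were below 0. At an unadjusted p under 0.05 there were 20 (25.6%, against 30.5% of all genes), and 23 without control 3 (29.5%, against 38.0%).

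The summed level of the 78 genes was 3370, 3335 and 3986 CPM in the control libraries and 3358, 3387 and 3444 CPM in the overexpressing libraries. The groups overlapped, and control 3 alone lay above the overexpressing libraries. Control cells averaged 3564 ± 366 CPM and USAG-1-overexpressing cells 3396 ± 44.1 CPM (SD, n = 3 per group), a ratio of 0.953, which was 1.01 when only controls 1 and 2 were used. As a share of all counts the genes took 0.338 to 0.381% in control and 0.337 to 0.347% in overexpressing libraries. The spread between replicates was also wider in control, with a median coefficient of variation over the 78 genes of 12.4%, than in overexpressing cells, at 4.37%. Over controls 1 and 2 alone it was 3.56%.

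Without control 3, 15 of the 78 genes (19.2%) passed, 8 lower and 7 higher, compared with 27.0% of all genes tested (11.2% lower and 15.8% higher). The median log2 fold change was -0.0089, close to the -0.015 of all genes, with 42 genes below 0 and 36 above. Of the 8 genes called with all libraries, 7 passed again in the same direction, and MRPL46 did not (-0.31, adjusted p = 0.0582). With any other single library left out only 1 or 2 of the 78 passed: 2 without control 1, 1 without control 2, 1 without overexpressing library 1, 1 without library 2 and 2 without library 3. Calls over the whole table also fell in these 5 fits, to 10.2%, 8.74%, 6.92%, 5.98% and 7.09% of the genes tested. MRPL30 was the 1 gene that passed in all 6 of these fits. An offset for the genomic span of each gene also turned the median to 0.0058, with 39 genes on each side of 0, while the median of all genes became 0.043. With this offset 5 of the 78 passed (2 higher, 3 lower), compared with 2834 of all 18188 genes tested (1928 higher and 906 lower).

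**Figure D2:**
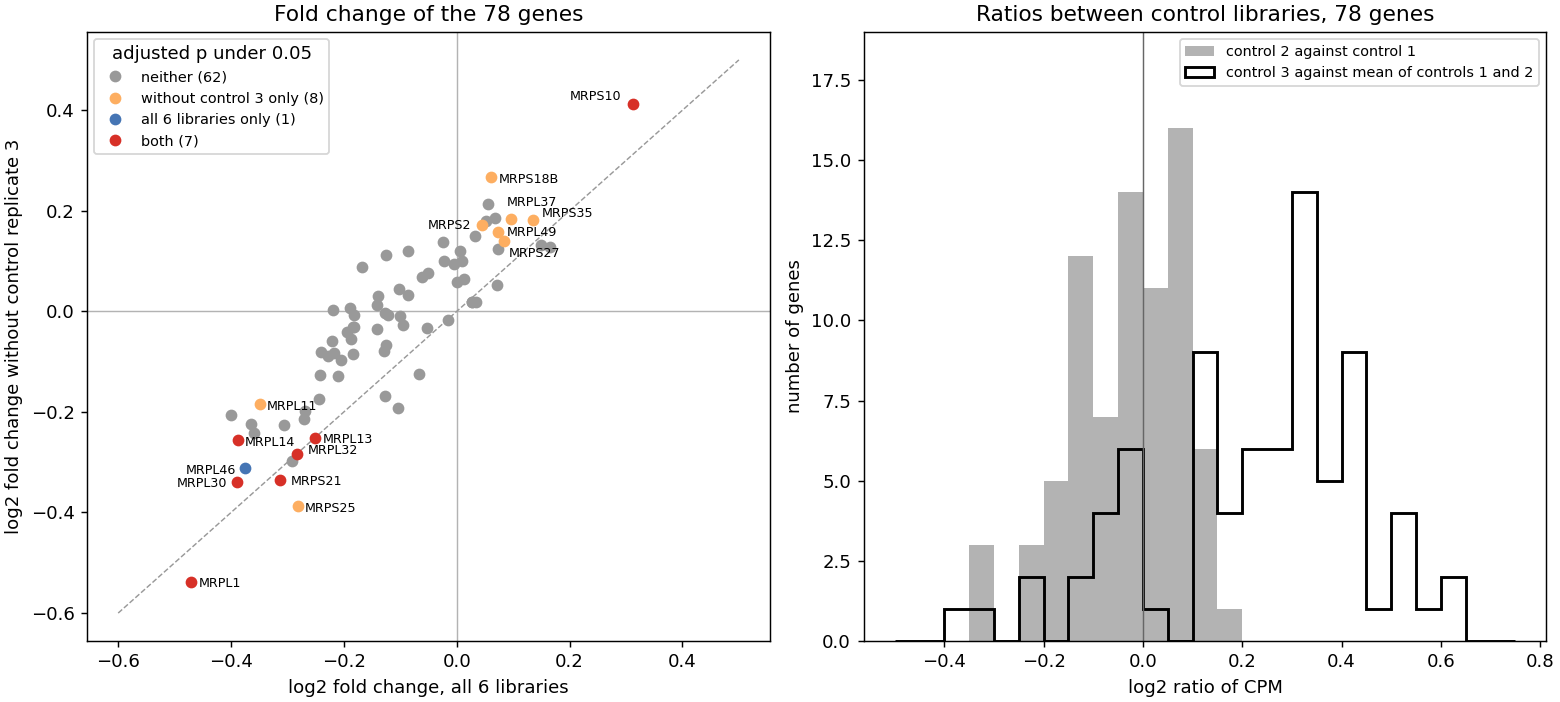
Left, log2 fold change (USAG-1 overexpression against control) of the 78 genes with all 6 libraries (x axis) and without control replicate 3 (y axis), the dashed line marking equal values; colours show where the adjusted p was under 0.05. Right, number of genes by the log2 ratio of control 2 to control 1 (filled) and of control 3 to the mean of controls 1 and 2 (outline), the latter shifted to the right by a median of 0.27.

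The standard errors of the log2 fold changes ranged from 0.059 to 0.17, with a median of 0.10. The 95% intervals of 56 of the 78 genes lay within 0.5 of 0 on the log2 scale, and no interval reached below -0.75 or above 0.50. Differences about as small as the median SE were within the error for most of these genes. The smallest change that passed was -0.25, in MRPL13, the gene with the lowest SE.

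Of the large subunit genes, 6 were called, all lower. MRPL30, the counterpart of bacterial L30, lies at chr2:99181152-99199561 (hg38, positions as in the deposited table). Its levels were 52.7, 52.1 and 57.4 CPM in control and 42.2, 40.2 and 41.4 CPM in USAG-1-overexpressing libraries. Every overexpressing library was below every control library, and the difference did not rest on control 3. The means were 54.1 ± 2.90 and 41.3 ± 1.00 CPM (SD, n = 3 per group), and the log2 fold change was -0.39 ± 0.06 (SE, edgeR adjusted p = 0.0061). Without control 3 it was -0.34 (edgeR adjusted p = 0.00114). A pair of unnamed genes overlaps it on the same strand, so reads may be shared.

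MRPL32, a zinc-binding protein that is processed by the m-AAA protease after import before it joins the ribosome, was measured at chr7:42932376-42948958. Its levels were 47.4, 49.6 and 47.7 CPM in control and 38.8, 38.3 and 41.9 CPM in overexpressing libraries. The groups did not overlap, and control 3 lay between the other control libraries. Its log2 fold change was -0.28 ± 0.06 (SE, edgeR adjusted p = 0.0217).

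MRPL13, the counterpart of bacterial L13, lies at chr8:120380761-120445402. It was at 52.0, 49.8 and 50.1 CPM in control and 43.9, 41.9 and 41.9 CPM in overexpressing libraries. The 6 values formed separate groups, each with an SD of 1.2 CPM or less. The log2 fold change was -0.25 ± 0.06 (SE, edgeR adjusted p = 0.0247), the smallest change among the genes that passed. MTBP overlaps MRPL13 on the opposite strand, and how the counting treated strand is not given in the sources used here.

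MRPL1, at chr4:77862830-77952785, is the counterpart of the bacterial protein of the mobile L1 stalk, through which deacylated tRNA leaves the ribosome. Its levels were 17.3, 16.8 and 14.5 CPM in control and 12.8, 11.9 and 10.5 CPM in overexpressing libraries. Here control 3 was the lowest control library, unlike in most of the other genes, and the groups still did not overlap. The log2 fold change was -0.47 ± 0.12 (SE, edgeR adjusted p = 0.0303), the largest fall among the 78 genes, and it was -0.54 without control 3.

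MRPL14, which lies at chr6:44113451-44127452 and whose protein faces the small subunit, was at 42.3, 45.8 and 56.0 CPM in control and 37.0, 36.2 and 37.0 CPM in overexpressing libraries. The groups did not overlap, although control 3 lay well above the other control libraries. The log2 fold change of -0.39 ± 0.10 (SE, edgeR adjusted p = 0.0376) became -0.26 (edgeR adjusted p = 0.00959) without control 3. TMEM63B overlaps this gene on the opposite strand.

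MRPL46, a mitochondria-specific protein of the central protuberance at chr15:88459477-88467389, was at 14.6, 13.3 and 15.6 CPM in control and 10.8, 11.0 and 11.8 CPM in overexpressing libraries. The groups were separate, with a log2 fold change of -0.37 ± 0.10 (SE, edgeR adjusted p = 0.0439). An unnamed gene overlaps it on the same strand, so reads may be shared. Its start lies 63 bases from that of MRPS11, a small subunit gene transcribed in the other direction, and no other pair among the 78 genes lies within 100 kb. MRPS11 is also one of the 78 genes, and was looked at only for this position. Its log2 fold change was -0.19 (edgeR adjusted p = 0.397), and its groups overlapped.

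Of the small subunit, 2 genes were called, in opposite directions. MRPS21, the counterpart of bacterial S21, lies at chr1:150293861-150308979. Its levels were 30.2, 33.3 and 29.9 CPM in control and 25.8, 26.1 and 23.4 CPM in overexpressing libraries. The groups did not overlap, and control 3 was the lowest control value. The log2 fold change was -0.31 ± 0.08 (SE, edgeR adjusted p = 0.0330).

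MRPS10, a protein of the head of the small subunit whose gene lies at chr6:42206807-42217861, was the gene that rose. It was at 71.1, 73.6 and 87.1 CPM in control and at 95.7, 96.8 and 95.2 CPM in overexpressing libraries. All overexpressing values exceeded the control values, and control 3 was the control library nearest to them. Its log2 fold change was 0.31 ± 0.08 (SE, edgeR adjusted p = 0.0372), and 0.41 without control 3 (edgeR adjusted p = 1.68e-04).

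**Figure D3:**
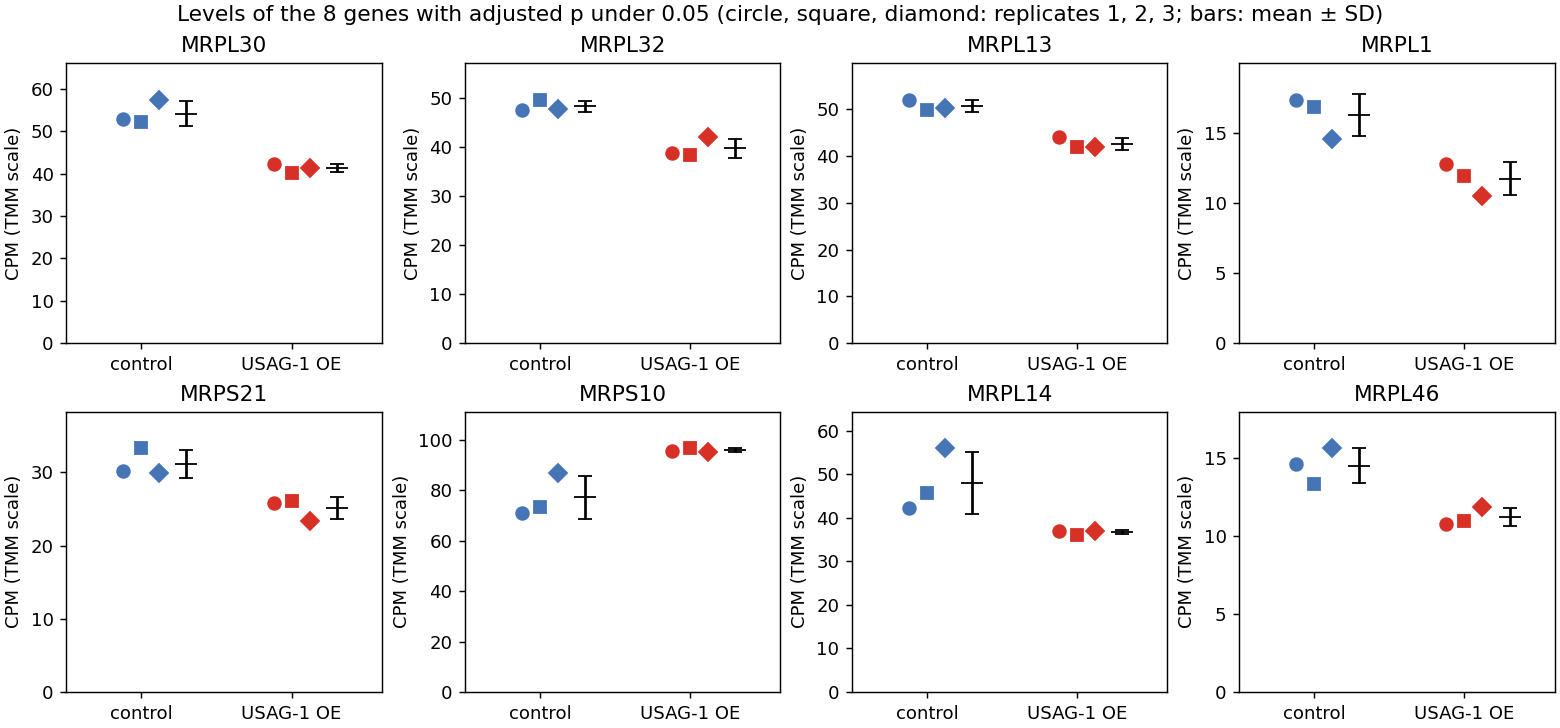
Levels of the 8 genes with an adjusted p under 0.05 (y axis, CPM on the TMM scale, from 0) in control and USAG-1-overexpressing (OE) libraries, each symbol a library and the bars mean ± SD (n = 3). In all 8 panels the groups are separate, and MRPS10 alone is higher in overexpressing libraries.

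Counting over the whole set, the overexpressing libraries were all above the control libraries for 4 genes and all below them for 15, and the groups overlapped for 59. In the whole table of tested genes, non-overlap was seen for 37.6% (19.4% above and 18.1% below). This imbalance was not seen without control 3: the overexpressing libraries were then above control for 20 genes and below for 17, while non-overlap in the whole table was 55.5% (27.6% above and 27.9% below). Groups with fewer libraries separate more easily, and what gave the imbalance was not tested. Of the 3 genes with the largest rises, MRPL42 and MRPL47 did not pass the test. MRPL42, a mitochondria-specific large subunit protein, was at 57.6, 56.8 and 52.1 CPM in control and 64.0, 61.0 and 61.8 CPM in overexpressing libraries (log2 fold change 0.17, edgeR adjusted p = 0.118). MRPL47, which lies at the exit of the tunnel, was at 54.9, 54.5 and 51.9 CPM against 60.3, 57.4 and 61.2 CPM (0.15, edgeR adjusted p = 0.132). Neither gene's groups overlapped, and with the offset for genomic span MRPL47 passed (0.23, edgeR adjusted p = 0.0326). MRPL54, a protein at the base of the L7/L12 stalk, had the second largest fall without passing the test. Its levels were 15.0, 14.5 and 20.9 CPM in control and 12.7, 11.8 and 13.7 CPM in overexpressing libraries (-0.40 ± 0.15 SE, edgeR adjusted p = 0.117). Control 3 was its highest library, and the log2 fold change was -0.21 without it.

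At the other end of the range, MRPS33, MRPS30 and MRPS23 had the smallest differences, with log2 fold changes of -0.00024, -0.0048 and 0.0052. MRPS33 was at 20.6, 18.6 and 21.7 CPM in control and 20.5, 18.9 and 21.5 CPM in overexpressing libraries, and its 95% interval was -0.21 to 0.21. MRPS17, the small subunit gene with the third smallest p, was at 17.1, 17.6 and 21.6 CPM in control and 17.1, 14.2 and 12.5 CPM in overexpressing libraries. Its groups overlapped, with a log2 fold change of -0.36 (edgeR adjusted p = 0.126).

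Some symbols do not give the place of the protein. MRPS30 and MRPS18A are built into the large subunit despite their names, and MRPS36 is now assigned to the 2-oxoglutarate dehydrogenase complex of the citric acid cycle. MRPS18A, MRPS18B and MRPS18C are paralogs related to bacterial S18, and none of these 3 genes passed the test with all libraries. In the unified naming of ribosomal proteins only MRPS18C keeps the bacterial name, so MRPS18A and MRPS18B are counted below as mitochondria-specific. MRPS18A was at 36.7, 35.7 and 52.5 CPM in control and 38.8, 40.8 and 37.8 CPM in overexpressing libraries (log2 fold change -0.087, edgeR adjusted p = 0.729). MRPS18B was at 78.9, 75.5 and 111.5 CPM against 85.0, 93.0 and 99.3 CPM (0.061, edgeR adjusted p = 0.818). In both genes control 3 was the highest of the 6 libraries, and without it MRPS18B passed as higher (0.27, edgeR adjusted p = 0.0174). MRPS18C, by contrast, was at 23.2, 21.9 and 19.6 CPM in control and 20.7, 18.6 and 22.5 CPM in overexpressing libraries, with control 3 the lowest control value (-0.067, edgeR adjusted p = 0.709). MRPS36 was at 7.98, 6.83 and 5.98 CPM in control and 5.82, 5.98 and 7.55 CPM in overexpressing libraries, and its groups overlapped (-0.10, edgeR adjusted p = 0.726).

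The genes that passed edgeR's test without control 3 but not with it were chosen after their values were seen, apart from MRPS18B. MRPL37 (0.18, edgeR adjusted p = 0.00522), MRPL49 (0.16, edgeR adjusted p = 0.0282), MRPS2 (0.17, edgeR adjusted p = 0.0220), MRPS27 (0.14, edgeR adjusted p = 0.0380) and MRPS35 (0.18, edgeR adjusted p = 0.0219) were then higher in USAG-1-overexpressing cells. MRPL11 (-0.19, edgeR adjusted p = 0.0475), which DESeq2's Wald test called with all libraries too, and MRPS25 (-0.39, edgeR adjusted p = 0.0278) were lower. MRPL37, for example, was at 170.6, 175.3 and 203.5 CPM in control and at 192.8, 197.4 and 196.8 CPM in overexpressing libraries, so control 3 exceeded all overexpressing libraries while the other control libraries lay below them.

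Grouped by symbol, 6 of 49 MRPL genes passed (12.2%), all lower, and 2 of 29 MRPS genes (6.90%), 1 in each direction. Their median log2 fold changes were -0.14 and -0.10. The share over all genes tested was 15.9%, with 6.91% lower and 8.95% higher. Without control 3 the counts became 8 MRPL genes (16.3%, 2 higher and 6 lower) and 7 MRPS genes (24.1%, 5 higher and 2 lower). Both shares were below the 27.0% of all genes in that fit (15.8% higher and 11.2% lower). Grouped by structure, the 51 large subunit genes and the 26 small subunit genes both had a median of -0.13, and whether the subunits differ was not tested. Large subunit genes summed to 2102, 2092 and 2468 CPM in control and 2073, 2087 and 2136 CPM in overexpressing libraries, and small subunit genes to 1260, 1236 and 1513 CPM and 1279, 1294 and 1300 CPM. In both subunits the one library that stood out was control 3.

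By ancestry as the unified names give it, 7 of 45 genes with a bacterial homologue passed (15.6%, 6 lower and 1 higher), with a median log2 fold change of -0.17. Of the 31 mitochondria-specific genes 1 passed (3.23%), MRPL46, with a median of -0.062. For comparison, 15.9% of all genes tested passed, 6.91% lower and 8.95% higher. Whether the ancestry classes differ was not tested. Without control 3, 9 of the 45 genes with a bacterial homologue passed (2 higher and 7 lower), with a median of -0.031. Of the 31 mitochondria-specific genes 6 then passed (5 higher and 1 lower), with a median of 0.058. The shares in either direction were similar, and both were below the 27.0% of all genes in that fit (15.8% higher and 11.2% lower). For MRPL55 and MRPS36, the remaining genes, no ancestry was assigned. By place in the large subunit, none of the 5 genes of the L7/L12 stalk passed (median -0.18), nor any of the 6 around the tunnel exit (median -0.17), and at an unadjusted p under 0.05 there were 2 in each. Of the 7 genes of the central protuberance, MRPL46 passed (median -0.13). Without control 3, MRPL11 passed in the stalk, and none passed at the tunnel exit or in the central protuberance, where 2 and 1 had an unadjusted p under 0.05.

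The RNA components of the same ribosome differed far more than the messages of its proteins. Protein levels were not measured here. MT-RNR2, the RNA of the large subunit, was at 5940, 5673 and 5745 CPM in control and 1551, 1590 and 1485 CPM in USAG-1-overexpressing libraries. MT-RNR1, the RNA of the small subunit, was at 1453, 1205 and 1403 CPM against 244.5, 234.8 and 273.4 CPM. Counts assigned to MT-TV, the valine tRNA that is built into the large subunit in human mitochondria, were at 31.0, 27.2 and 25.9 CPM against 2.79, 3.07 and 2.71 CPM. The MT-TV gene spans 1602 to 1670 of mitochondrial DNA, between the end of MT-RNR1 at 1601 and the start of MT-RNR2 at 1671. It is shorter than the reads of 150 bases, so reads may be shared, and the source of its counts was not tested. For all 3 RNAs the groups were far apart and control 3 lay within or near the range of the other control libraries. The log2 fold changes were -1.91 ± 0.05 (SE) for MT-RNR2 (edgeR adjusted p = 6.96e-07), -2.43 ± 0.09 (SE) for MT-RNR1 (edgeR adjusted p = 3.50e-06) and -3.29 ± 0.12 (SE) for MT-TV (edgeR adjusted p = 2.40e-06). Their 95% intervals reached no higher than -1.79, -2.22 and -3.03, whereas the lowest bound of any of the 78 protein genes was -0.75.

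The 2 ribosomal RNAs together had 2.19, 2.06 and 1.79 CPM for each CPM of the 78 protein genes in control and 0.535, 0.539 and 0.510 in overexpressing libraries. This ratio compares libraries only, since RNA lengths were not used, and how completely these RNAs were captured is unknown: the labels describe poly(A) selection in one place and removal of ribosomal RNA in another. All 37 mitochondrially encoded genes together fell from 4.80 to 5.59% of counts in control to 1.50 to 1.55% in overexpressing libraries. With these genes left out of the library sizes, 8 of the 78 protein genes passed, the same 8. TMM factors were still computed in that fit, so the scaling could change little. The part of this fall in the calls was not tested. The T and cytotoxic cell markers moved in the same direction as the RNAs, at the levels given above, and their part was not tested.

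**Figure D4:**
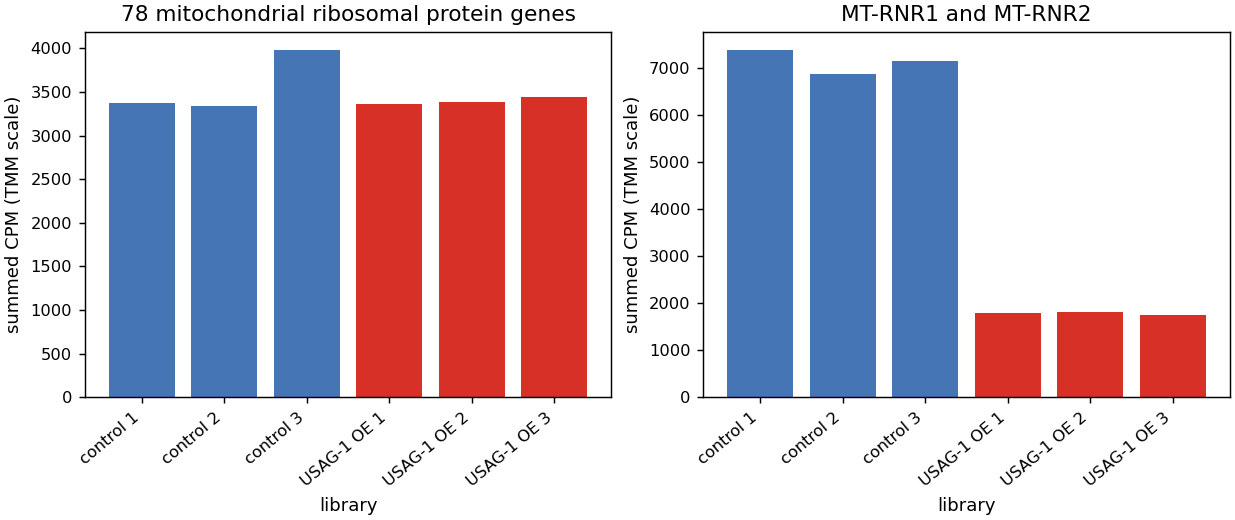
Summed level (y axis, CPM on the TMM scale, from 0) of the 78 mitochondrial ribosomal protein genes (left) and of MT-RNR1 with MT-RNR2 (right) in each control (blue) and USAG-1-overexpressing (OE, red) library. The protein genes are between 3335 and 3986 CPM in all libraries, while the mean of the RNAs is 3.98 times as high in control as in overexpressing libraries.

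Of the genes for the 5 proteins of this ribosome without an MRP symbol, none passed edgeR's test with all libraries, and 3 had an unadjusted p under 0.05. CHCHD1, of the small subunit, was at 15.9, 17.4 and 18.5 CPM in control and 14.0, 9.89 and 13.6 CPM in overexpressing libraries (-0.47, edgeR adjusted p = 0.0601), and GADD45GIP1, of the large subunit, had a log2 fold change of -0.28 (edgeR adjusted p = 0.152). Their groups did not overlap. DAP3, a small subunit protein that binds GTP, was chosen after its values were seen: it passed as higher without control 3 (0.27, edgeR adjusted p = 0.00216) but not with it (0.18, edgeR adjusted p = 0.163).

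Among 26 assembly factors, 3 passed, all lower (11.5%), with a median of -0.12 over the list. The share of all genes tested that passed was 15.9%, with 6.91% lower and 8.95% higher. RPUSD4, which makes pseudouridine in the large ribosomal RNA, was at 25.8, 27.2 and 29.4 CPM in control and 19.8, 21.7 and 22.3 CPM in overexpressing libraries (-0.37, edgeR adjusted p = 0.0230). MRM1, which methylates the same RNA, had a log2 fold change of -0.70 (edgeR adjusted p = 0.0254), and MTERF4, a partner of the methyltransferase NSUN4 in large subunit assembly, one of -0.41 (edgeR adjusted p = 0.0293). All of these groups were separate. Without control 3 these 3 and FASTKD2, MTG1 and METTL17 passed, all lower, the last 3 chosen after their values were seen. That was 23.1% of the list, compared with 27.0% of all genes in that fit. Among 14 translation factors 1 passed, as higher (7.14%): MTIF2, which brings the initiator tRNA to the small subunit, was at 36.8, 35.8 and 33.9 CPM in control and 44.0, 47.0 and 44.6 CPM in overexpressing libraries (0.35 ± 0.06 SE, edgeR adjusted p = 0.00997). The groups did not overlap, and without control 3, GUF1, OXA1L and GFM1, named for that result, passed as higher too. With MTIF2 they made 28.6% of the translation factors, near the 27.0% of all genes.

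Nuclear-encoded oxidative phosphorylation subunits, which assemble with the products of mitochondrial translation, had 9 of 77 called (11.7%), all lower, with a median of -0.17. They were COX7C, NDUFA2, NDUFA13, NDUFB6, UQCRQ, ATP5PF, ATP5MJ, ATP5MG and ATP5ME, from -0.25 (ATP5PF) to -0.58 (NDUFA2). The shares over all genes tested were 15.9% in either direction and 6.91% lower. Without control 3, 17 of the 77 passed (22.1%), 12 lower and 5 higher, compared with 27.0% of all genes. Cytosolic ribosomal protein genes had 29 of 79 called (36.7%), all lower, between -0.59 and -0.25, with a median of -0.28. Without control 3, 47 passed (59.5%), 46 of them lower, and the median was -0.20. Control 3 was raised for these genes by a median of 0.28 (69 of 79 genes), as for the mitochondrial ones. The cytosolic and mitochondrial lists were not tested against each other.

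**Figure D5:**
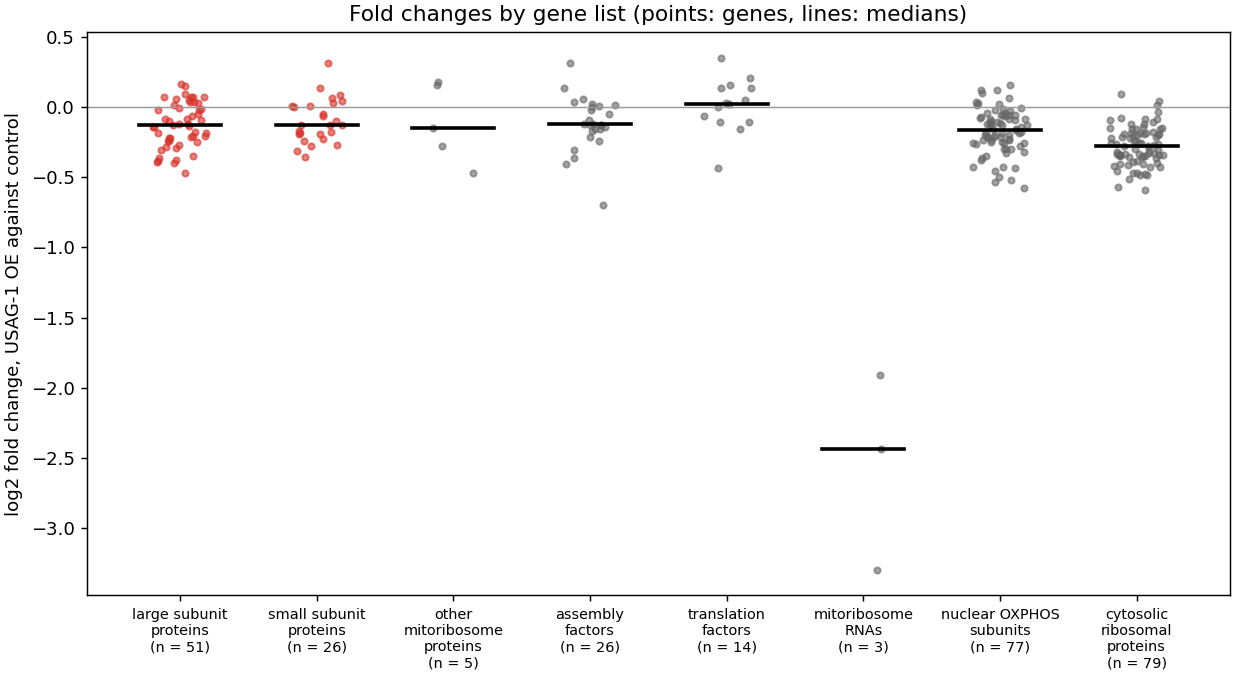
Log2 fold change, USAG-1 overexpression against control (y axis), of each gene (points, scattered sideways for visibility) in the lists described, with the median of each list as a line. The lists of protein genes have medians between -0.28 and 0.024, and the RNA components of the mitochondrial ribosome lie at -1.91 and below.

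Over the whole table, differences varied with genomic span, the distance from the first to the last base of a gene in the deposited table. Over the 78 genes the relation was weak. The 26 of them with the shortest spans (677 to 5385 bases) had a median log2 fold change of -0.18, with 24 below 0 and none called. In control 3 these 26 were raised by a median of 0.33. The middle 26 (5406 to 15119 bases) had a median of -0.043 and the longest 26 (15264 to 354692 bases) one of -0.070, with 4 called in each, and for the longest control 3 was raised by 0.13. Genes of like span in the whole table had medians of -0.15 (3743 genes), -0.066 (3346 genes) and 0.027 (11099 genes). Over the 78 genes, which share all 6 libraries, the log2 fold change and log10 span had a Pearson r of 0.13 and a Spearman rho of 0.16, given as a description. Without control 3 these were -0.10 and -0.017. Without control 3 the medians of the 3 span classes of the 78 genes were -0.018, 0.019 and -0.026, whereas those of the whole table kept their order, at -0.13, -0.037 and 0.026.

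Reads of some of these genes may be shared. According to the deposited positions, 43 of the 78 genes overlap another gene, 21 on the same strand and 35 on the opposite one, and 24 have a pseudogene by symbol. Of the genes called, MRPL32 and MRPS21 have one such copy each, with at most 2 counts in a library.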

How the data were processed

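The authors deposited 1 table of raw counts, whole numbers per gene that are not normalized, for 6 libraries that the labels describe as poly(A)-selected and strand-specific, with paired reads of 150 bases, and elsewhere as depleted of ribosomal RNA. Its name speaks of FPKM. The submitters' processing notes list cutadapt 1.9, FastQC and hg38. The aligner, the counting and the annotation are not given in the sources used here. Every per-sample column was mapped to a library.

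Samples were grouped by their titles. The deposited counts were filtered (filterByExpr), scaled (TMM) and tested (quasi-likelihood test, no replicate block) in edgeR 4.0.16 under R 4.3.3. Benjamini-Hochberg adjustment covered 18188 genes, which held 99.9% of the counts. Intervals use edgeR's t distribution, and standard errors were derived from the log2 fold change and its quasi-likelihood F. CPM values are on the TMM scale. A count of 0 allows up to 3 counts, or 0.0608 to 0.0719 CPM, which covers counting error only. Groups called separate do not overlap in CPM.

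The members and lists were chosen with earlier results of these data known, and the lists and structural classes were typed from general knowledge. The text names each called member, the 3 MRPL and 3 MRPS genes with the smallest p, the 3 largest rises and falls, the 3 smallest changes, MRPS18A, MRPS18B, MRPS18C, MRPS30 and MRPS36, and the called members of the other lists or else the 2 with the smallest p. For cytosolic ribosomal proteins only counts and ranges are given. Other genes were named after their values were seen. Levels were not compared between genes, since transcript lengths were not used here.

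Alternatives were DESeq2's size factors, library sizes alone, library sizes without the mitochondrially encoded genes, DESeq2 1.42.0 (the test the study's methods name), limma-voom (limma 3.58.1), no filter, a minimum of 10 counts per library, a block for replicate number, an offset for genomic span, both together, and each library left out. Data for USAG-1 overexpression against control were also simulated with 17728 genes. Of 96 genes changed by 0.5 on the log2 scale 32.3% were recovered, and of 99 changed by 1, 67.7%. Of the calls 4.85% were false. Far fewer genes were changed in the simulation than the 2884 that passed in the data. Recovery was not computed separately for the mitochondrial ribosomal protein genes, so these shares do not measure it for them.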

Additional observations from a re-analysis of the deposited data

How the results depend on the processing

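With all libraries in the fit, 7 to 10 of the 78 genes passed under DESeq2's size factors, library sizes alone, mitochondrially encoded genes left out, DESeq2's Wald test, limma-voom and at least 10 counts in every library, compared with 8. DESeq2 called 10, the same 8 with MRPL11 and MRPL22. Without a filter 3 passed (3 MRPL and 0 MRPS genes, the latter 2 with the filter and 5 at an unadjusted p under 0.05), and with library sizes alone 1 MRPS gene. The offset for genomic span left 5 (1 MRPS gene) and a median of 0.0058, with 2834 genes called over the whole table. This offset with the replicate block left 3 (2 MRPL, 1 MRPS) and a median of 0.027, with 2143 genes called over the whole table. The replicate block alone gave 7, with a median of -0.12 and 2381 genes called over the whole table. Replicate numbers did not pair the samples: deviations of same-numbered libraries correlated at 0.070, -0.054 and 0.037. Leaving out each library in turn gave 1 to 15 of the 78 genes, 1 to 8 MRPL and 0 to 7 MRPS genes, medians of -0.19 to -0.0089, and 1137 to 5091 genes over the whole table, the highest counts being those without control 3. MRPL30 passed under every alternative run. No named member changed sign while called. Changes about as small as the median SE of 0.10 on the log2 scale were within the error of most of these genes.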
